A study of Mus musculus with 56 samples.

Results

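The aryl hydrocarbon receptor (AHR) and 7 genes of its pathway were followed in mouse skeletal muscle after cigarette smoke exposure and after its withdrawal. The 8 genes, chosen from 18193 genes named on the array, were the receptor Ahr, its partner Arnt, the repressor Ahrr and the target genes Cyp1a1, Cyp1a2, Cyp1b1, Tiparp and Aldh3a1. Every probe set annotated to 1 of them was kept, dim ones included, which gave 17 of 45037 probe sets. The genes were listed with the rise of Cyp1a1 under smoke already known, so that its smoke differences are given as a description with no test.

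AHR is a transcription factor held in the cytoplasm by chaperones until it binds a flat aromatic ligand, such as the polycyclic aromatic hydrocarbons of tobacco smoke. The bound receptor moves to the nucleus, pairs with ARNT and binds DNA elements with the core GCGTG, and cytochrome P450 genes of the CYP1 family are its classical targets. AHRR and TIPARP are themselves induced by AHR and restrain it, the first by competing for ARNT and DNA, the second by ADP-ribosylation.

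Gastrocnemius, a calf muscle, was taken from female C57BL/6 mice of unstated age, and its RNA was amplified and hybridised to 1-colour Affymetrix arrays. The mice carried no genetic change named in the labels. Smoke groups breathed 4% mainstream cigarette smoke through the nose, and air groups had sham exposure to air, for 2 hours a day on 5 days a week. The 9 groups were untreated mice at week 0, air and smoke at 2 weeks, air and smoke at 12 weeks, air and smoke at 24 weeks, and 2 cessation arms, labelled FA and RA. The submitters' treatment text gives cessation mice 12 weeks of smoke and then 12 weeks of sham exposure, without telling the arms apart. FA is also the label of the sham-air groups, and the labels spell out neither FA nor RA. The 12-week smoke group had 7 mice and each of the others 6, and 1 of those 7 mice was hybridised on 2 arrays, which were averaged, so that 56 arrays stood for 55 mice. The labels describe the mice as randomly selected from each treatment group.

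All 6 skeletal muscle markers examined lay between 12.97 and 13.76 on the log2(intensity + 16) scale in every array, as the tissue label requires. In 12 arrays, however, Glycam1, a mucin of lymph node vessels, exceeded an intensity of 2000. It was at least 6944 in those arrays and at most 307 in the other 44. The summed intensity of 6 lymphocyte markers (of 8 listed) was 3749 to 27212 in the 12 arrays and 152.4 to 1481 in the others. The 12 arrays came from 1 untreated mouse, 1 mouse of 2-week air, 2 of 12-week smoke, 1 of 24-week air, 3 of 24-week smoke, 1 of FA and 3 of RA, and none from 2-week smoke or 12-week air. Other marker lists also differed between the 12 arrays and the rest: the summed intensity of 5 adipocyte markers was 20610 to 32682 (median 25635) against 9256 to 31204 (median 12224). That of 4 genes listed for liver, of which Cyp2e1 was the brightest, had a median of 3889 against 1404, also with overlapping ranges. Which tissue the members' signal in these arrays came from was not tested. Many results are therefore given with them and without them (44 mice), and the others are over all mice unless stated. In muscle pieces such as these, more cells of a type and more RNA per cell cannot be told apart.

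The promoters of 6 of the 8 genes were matched in the RefSeq table of build GRCm38.p6, and 5 are shown so that the AHR core element can be seen near their starts. No link between the element and a change in level was tested. Each line gives the 250 bases before the transcription start, 5′ to 3′ on the gene's strand, with GCGTG or its reverse complement CACGC in capitals. The windows are chr9:57697363-57697612 (plus strand) for Cyp1a1, chr17:79715062-79715311 (minus strand) for Cyp1b1, chr13:74292332-74292581 (minus strand) for Ahrr, chr3:65528197-65528446 (plus strand) for Tiparp and chr9:57683656-57683905 (minus strand) for Cyp1a2.
Cyp1a1: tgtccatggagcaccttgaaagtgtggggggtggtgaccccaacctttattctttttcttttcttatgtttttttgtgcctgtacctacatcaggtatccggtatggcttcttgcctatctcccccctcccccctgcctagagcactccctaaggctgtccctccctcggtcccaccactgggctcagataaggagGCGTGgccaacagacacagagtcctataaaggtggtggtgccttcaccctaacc
Cyp1b1: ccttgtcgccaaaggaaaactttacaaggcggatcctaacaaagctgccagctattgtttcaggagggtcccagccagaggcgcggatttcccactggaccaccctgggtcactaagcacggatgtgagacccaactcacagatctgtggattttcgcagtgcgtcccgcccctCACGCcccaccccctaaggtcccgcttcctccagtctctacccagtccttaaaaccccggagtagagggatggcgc
Ahrr: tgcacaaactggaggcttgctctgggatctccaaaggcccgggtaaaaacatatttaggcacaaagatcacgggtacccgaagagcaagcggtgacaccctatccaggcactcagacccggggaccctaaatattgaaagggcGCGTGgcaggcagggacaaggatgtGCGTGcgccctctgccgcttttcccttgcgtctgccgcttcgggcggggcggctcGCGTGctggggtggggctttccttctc
Tiparp: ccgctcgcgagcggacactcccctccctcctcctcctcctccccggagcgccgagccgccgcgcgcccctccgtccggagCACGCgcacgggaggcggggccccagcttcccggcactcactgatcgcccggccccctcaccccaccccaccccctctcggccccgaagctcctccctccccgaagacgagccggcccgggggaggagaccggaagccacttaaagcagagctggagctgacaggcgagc
Cyp1a2: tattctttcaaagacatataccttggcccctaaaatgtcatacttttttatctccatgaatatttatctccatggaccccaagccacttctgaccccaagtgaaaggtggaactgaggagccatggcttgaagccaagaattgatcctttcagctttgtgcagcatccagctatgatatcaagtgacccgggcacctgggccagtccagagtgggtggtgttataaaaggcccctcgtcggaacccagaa
The element was found once in Cyp1a1, with its first base at -54 from the start, once in Cyp1b1 at -76, once in Tiparp at -170 and 3 times in Ahrr, at -107, -82 and -27. Arnt, whose window is not shown, held it once at -29, and Cyp1a2 had no match. Among 32851 promoter windows of this length, 28.2% held it on either strand, and 8.6% held 2 or more. Cyp1a1 and Cyp1a2 lie head to head on chromosome 9, with the transcript starts behind the promoter windows 13958 bases apart. The Cyp1a1 window lies inside the gene's RefSeq span. The response elements of Cyp1a1 that have been studied most lie farther upstream than the window, so these letters describe only the bases nearest the start.

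By mean level the members ran from the 11.3 to the 92.7 percentile of all probe sets. Of the 17 probe sets, 10, from 5 genes, had a mean level above 5.71, the 40th percentile of all probe sets. Arnt was brightest (a mean level of at least 9.99 on 3 of its 5 probe sets), and the means of the 3 Tiparp probe sets were 10.16, 9.46 and 8.03. Cyp1a2 (4.69), Ahrr (4.61) and Aldh3a1 (5.37) lay below that level, as did 1 probe set of Ahr, 2 of Cyp1b1 and 1 of Arnt. Brightness differs between probes for reasons of chemistry, so these values say where a measurement is firm and not which gene is more abundant.

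**Figure D1:**
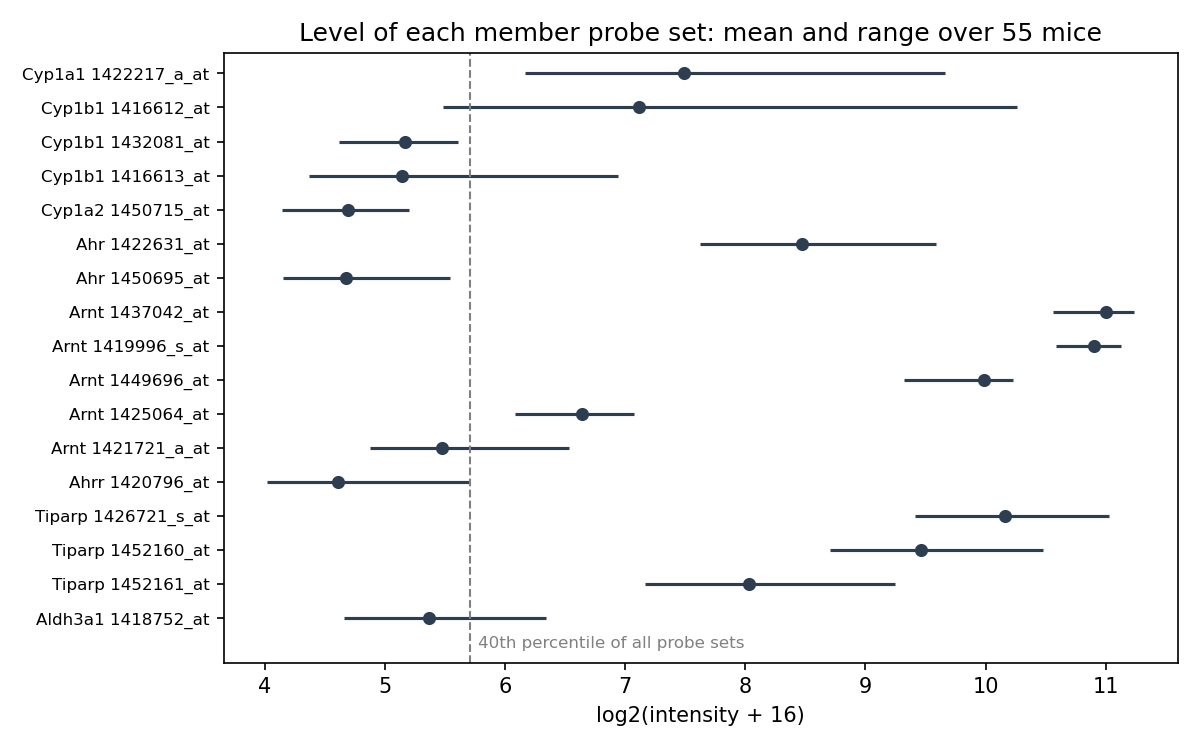
Mean (point) and lowest to highest value (line) of each of the 17 probe sets over 55 mice, on the log2(intensity + 16) scale, with the 40th percentile of all probe sets (5.71) as a dashed line. Cyp1a1 and 1 probe set of Cyp1b1 have the longest lines, and the brightest Arnt probe sets have the shortest.

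Cyp1a1 encodes a monooxygenase that oxidises polycyclic aromatic hydrocarbons and is the usual read-out of AHR activity (gene ID 13076, chr9:57687928-57703824, probe set 1422217_a_at). In untreated mice its level ran from 6.16 through a median of 6.46 to 7.22. After 2 weeks it was 6.59, 7.03 and 7.44 (lowest, median, highest) in air and 7.12, 7.56 and 7.75 in smoke. Here 4 of the 6 mice in smoke exceeded every mouse in air. After 12 weeks it was 7.06, 7.29 and 7.39 in air and 8.00, 8.48 and 9.66 in smoke, and all 7 smoke mice lay above all 6 air mice. After 24 weeks it was 6.83, 7.54 and 7.73 in air and 6.43, 7.83 and 8.60 in smoke. The 24-week smoke group was the most spread of the 9: 3 of its 6 mice exceeded every mouse in air and 1 was below them all.

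Smoke minus air for Cyp1a1 was 0.47 ± 0.25 (log2 difference ± SE) at 2 weeks, 1.47 ± 0.24 at 12 weeks, or 2.78-fold, and 0.37 ± 0.25 at 24 weeks. The mean of the 3 differences was 0.77 ± 0.14. Without the 12 Glycam1-high arrays these values were 0.55 ± 0.23, 1.55 ± 0.22, 0.60 ± 0.28 and 0.90 ± 0.14. The 12-week difference thus stayed close to its size, and the 24-week one grew by more than 1.5 times. Single mice also moved the 24-week value that far: leaving out smoke replicate 6, the lowest mouse, gave 0.64, and leaving out smoke replicate 3 or 2 gave 0.21 or 0.24. The 12-week difference exceeded the 2-week one by 1.00 ± 0.34, and the 24-week one was below the 12-week one by 1.11 ± 0.34. All 7 mice at 12 weeks of smoke were above all 6 at 2 weeks, and 4 of 6 mice at 24 weeks of smoke were below the lowest at 12 weeks.

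**Figure D2:**
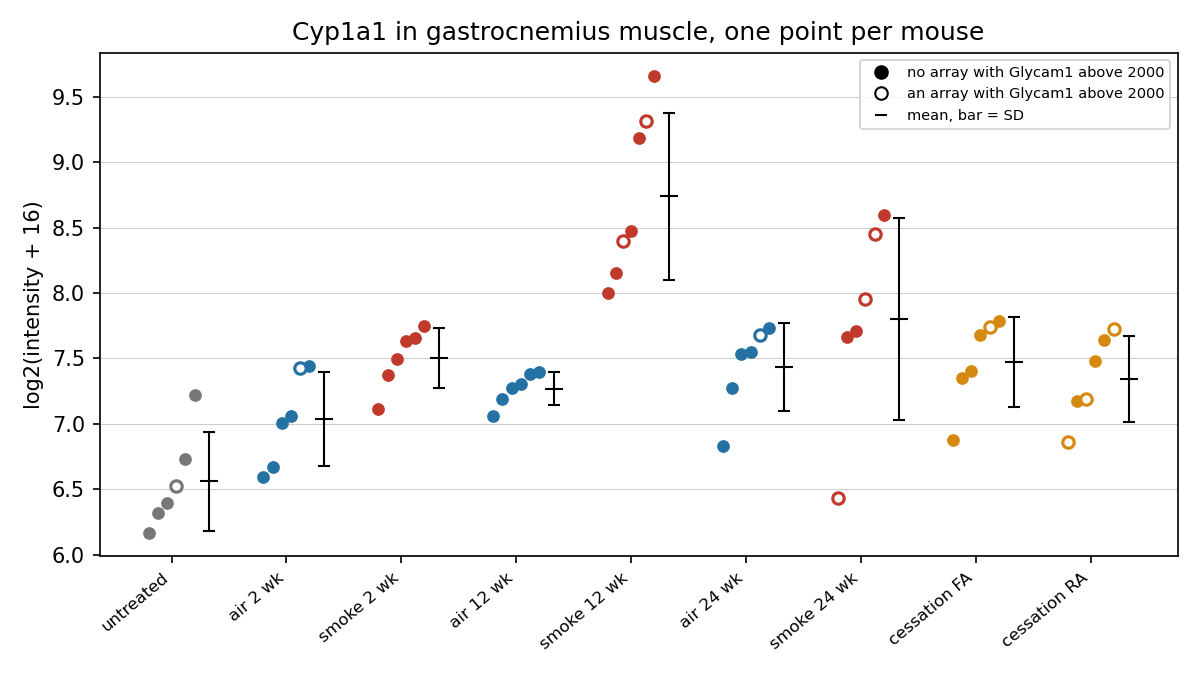
Cyp1a1 level of each mouse on the log2(intensity + 16) scale by group, with the group mean and SD; open points are mice with an array whose Glycam1 intensity exceeded 2000. The 7 mice at 12 weeks of smoke sit between 8.00 and 9.66, above every air and cessation mouse.

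Cyp1a1 signal ran from 6.43 to 9.19 in the 12 Glycam1-high arrays and from 6.16 to 9.66 in the other 44. The mouse hybridised on 2 arrays, 1 on either side of the Glycam1 limit, gave 9.19 and 9.43. Endothelial cells are a known site of Cyp1a1 expression, and the summed intensity of 6 endothelial markers was 2765 to 4625 in 12-week smoke and 3627 to 5084 in 12-week air. The summed signal of 4 lung markers, 2 of them dim, was 67.6 to 151.9 in 12-week smoke and 83.6 to 208 in 12-week air. At 2 weeks it was 170.9 to 301.2 (median 191.5) in smoke and 90.5 to 260.8 (median 130.3) in air. At 24 weeks it was 92.3 to 148.7 in smoke and 88.9 to 157.6 in air. The part of these cells in the Cyp1a1 values was not tested.

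In the cessation arms 4 of 6 FA mice and 6 of 6 RA mice had Cyp1a1 within the range of 24-week air. The lowest, median and highest levels were 6.88, 7.54 and 7.78 in FA and 6.86, 7.33 and 7.73 in RA, and all 12 mice were below the lowest mouse at 12 weeks of smoke, the point at which their own exposure had ended. FA minus 12-week smoke was -1.27 ± 0.24 and RA minus 12-week smoke was -1.39 ± 0.24. Against 24-week air, FA differed by 0.04 ± 0.25 (95% interval -0.46 to 0.53, adjusted p = 0.999, limma) and RA by -0.09 ± 0.25 (-0.58 to 0.41, adjusted p = 0.933). Against each other, RA minus FA was -0.13 ± 0.25 (-0.62 to 0.37, adjusted p = 0.969). The intervals do not show that the groups are alike. Against 24-week smoke the estimates were -0.33 ± 0.25 for FA and -0.45 ± 0.25 for RA. Without the Glycam1-high arrays they were -0.57 ± 0.28 and -0.56 ± 0.31, and those against 24-week air were 0.03 ± 0.24 and 0.05 ± 0.28.

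The lowest group mean of Cyp1a1 was that of the untreated mice (6.56 ± 0.38, SD, n = 6). Of 6 untreated mice, 4 were below the lowest of the 18 sham-air mice, and 11 of those 18 were above the highest untreated mouse. The single tested step, 2-week air minus untreated, was 0.48 ± 0.25 (adjusted p = 0.875, limma) and did not pass. Air mice at 24 weeks differed from those at 2 weeks by 0.40 ± 0.25 (adjusted p = 0.675). Untreated mice were taken only at week 0, so that age and sham exposure cannot be told apart.

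Ahr, the receptor (gene ID 11622, chr12:35497979-35534989), was measured by 1 bright probe set, 1422631_at, and 1 dim one. The bright one was at 8.26, 8.49 and 8.59 (lowest, median, highest) in 12-week air and 8.26, 8.41 and 9.59 in 12-week smoke. Smoke minus air was -0.20, 0.20 and 0.29 at the 3 times, with a mean of 0.10 ± 0.11 (adjusted p = 0.856, limma), and the groups overlapped at each time. Without the Glycam1-high arrays the 3 differences were -0.03, -0.07 and 0.06. In RA the level was 8.49, 8.89 and 9.08, against 8.08, 8.31 and 8.85 in 24-week air, a difference of 0.49 ± 0.19 (adjusted p = 0.311; without the Glycam1-high arrays 0.42 ± 0.15, adjusted p = 0.189). Ahr signal lay higher in the Glycam1-high arrays: 8 of the 12 high arrays were above every other array, at 8.85 to 9.71 against 7.63 to 8.99. The share of all probe sets with such a shift was not counted.

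Arnt, the partner that AHR shares with the hypoxia-inducible factors (gene ID 11863, chr3:95434367-95497240), had the smallest spread of any member on its 3 bright probe sets. For the brightest probe set, 1437042_at, the 12-week levels were 10.83, 11.07 and 11.14 in air and 10.87, 11.12 and 11.14 in smoke. Their SD over all 55 mice was 0.10 to 0.15, against 0.21 and 0.32 for its other probe sets, and none passed the test in any of the 16 comparisons. The fourth, 1425064_at, ran from 6.34 through 6.38 to 6.69 in 24-week smoke and from 6.60 through 6.71 to 6.82 in air, with 5 of 6 smoke mice below every air mouse. That difference was -0.28 ± 0.12 (adjusted p = 0.216; without the Glycam1-high arrays -0.34 ± 0.12, adjusted p = 0.146). The dimmest Arnt probe set, 1421721_a_at, differed in the same direction, by -0.25 ± 0.19 (adjusted p = 0.480; without those arrays -0.52 ± 0.23, adjusted p = 0.251), with 3 of 6 smoke mice below every air mouse. The bright probe sets did not share it: their 24-week differences were 0.09, -0.03 and -0.02, and 0.25, 0.07 and 0.12 without those arrays.

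Cyp1b1 encodes a second hydrocarbon-oxidising P450, expressed mainly outside the liver (gene ID 13078, chr17:79706940-79715061). Its signal separated the Glycam1-high arrays from the others. Probe set 1416612_at was at 9.37 to 10.64 in the 12 Glycam1-high arrays and at 5.49 to 8.09 in the other 44, with no overlap. In the mouse with 2 arrays it was 10.64 on the Glycam1-high array and 6.19 on the other. Probe set 1416613_at was split the same way, and the dim 1432081_at was not. The share of all probe sets split in this way was not counted, so the split is not read as particular to Cyp1b1.

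At 12 weeks 1416612_at was at 5.65, 6.15 and 6.49 in air and 6.32, 6.92 and 10.26 in smoke, and 6 of the 7 mice in smoke exceeded every mouse in air. The 2 highest of them, at 10.26 and 8.42, had a Glycam1-high array, and no air mouse had one. Without those arrays smoke ran from 6.19 to 7.14 and overlapped air. The difference was 1.41 ± 0.72 with all mice and 0.59 ± 0.26 without the Glycam1-high arrays, with adjusted p-values of 0.9997 and 0.760 (limma). Most of the difference was gone once those arrays were left out. At 2 weeks smoke minus air was -0.71 ± 0.75 (without them -0.16 ± 0.27), and at 24 weeks 1.12 ± 0.75 (without them 0.10 ± 0.33). In air alone, 24-week minus 2-week mice differed by 0.86 ± 0.28 without those arrays (adjusted p = 0.151). No Cyp1b1 difference passed the test in either set of arrays.

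**Figure D3:**
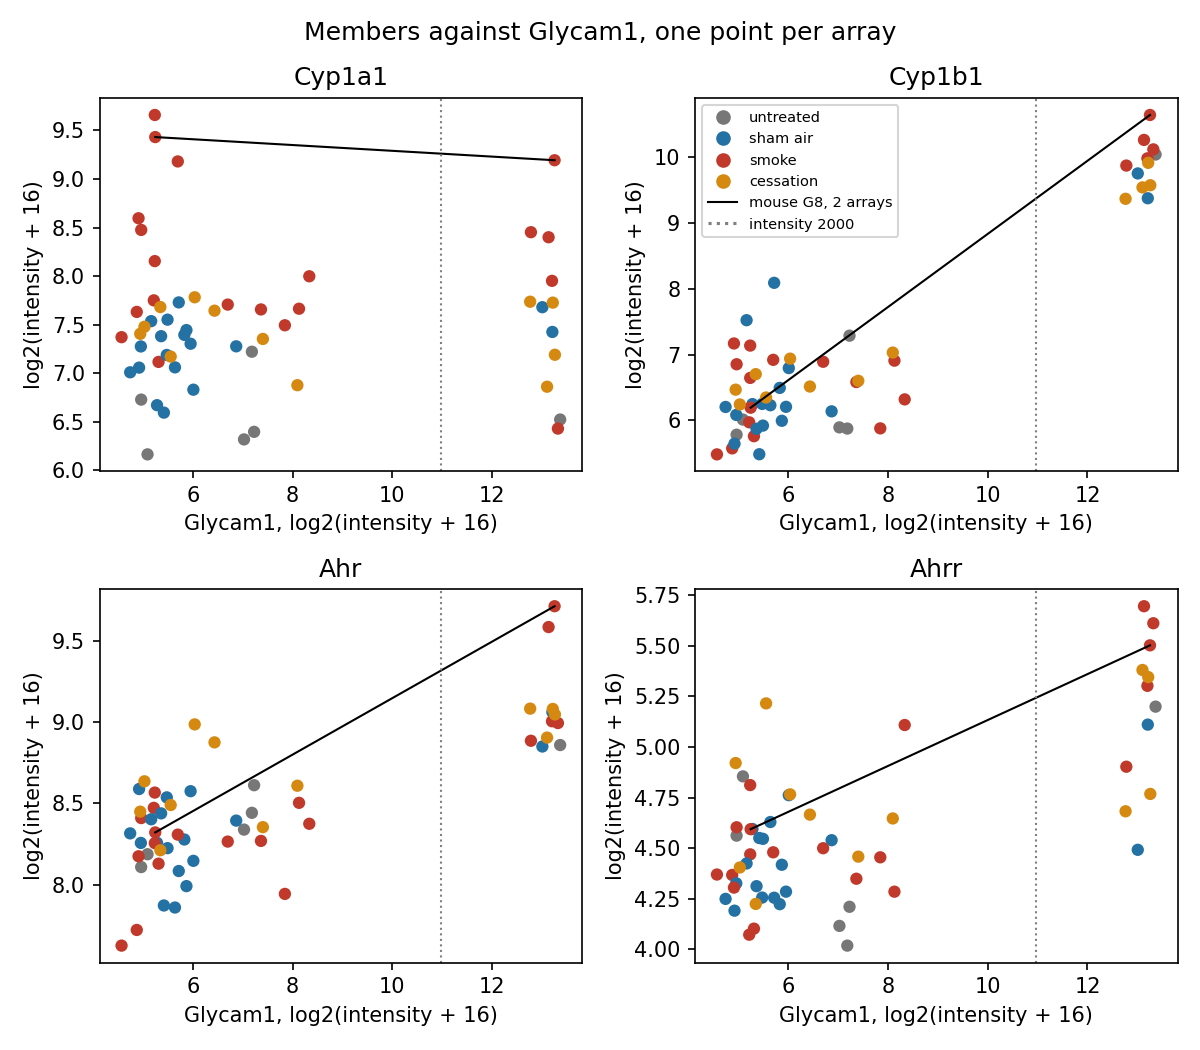
Level of Cyp1a1, Cyp1b1 (1416612_at), Ahr (1422631_at) and Ahrr in each of the 56 arrays against Glycam1, all on the log2(intensity + 16) scale, with the Glycam1 limit of 2000 dotted and the 2 arrays of 1 mouse joined by a line. Cyp1b1 falls into separate blocks on either side of the limit, and Cyp1a1 covers the same range on both.

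Cyp1a2, the liver-type sister of Cyp1a1 on the same chromosome (gene ID 13077, chr9:57676937-57683655), stayed dim in every mouse, with levels of 4.14 to 5.20. At 12 weeks it was at 4.60, 4.81 and 5.06 in air and 4.55, 4.70 and 5.01 in smoke, and smoke minus air was -0.08 ± 0.12 (adjusted p = 0.9997, limma). Its largest difference from 24-week air was in RA, 0.33 ± 0.12 (adjusted p = 0.260). At this signal a change in a gene near background may not be seen, so the values set no limit on the transcript.

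Ahrr, the AHR repressor (gene ID 11624, chr13:74211118-74292331), was also dim. Beside Cyp1a1 it was the member whose smoke and air mice did not overlap at 12 weeks. Its level was 4.19, 4.27 and 4.33 in air and 4.47, 4.81 and 5.70 in smoke, and all 7 smoke mice lay above all 6 air mice. How many of all probe sets separate in this way was not counted, so nothing is read from it about Ahrr. Smoke minus air was 0.62 ± 0.19 with all mice (unadjusted p = 0.0019, adjusted p = 0.9997, limma) and 0.41 ± 0.13 without the Glycam1-high arrays (adjusted p = 0.739). The size depended on the constant added before the log, at 1.67 with 1 and 0.22 with 64, and the separation did not pass the test over 45037 probe sets. At 2 weeks the difference was -0.31 and at 24 weeks 0.31, the latter -0.14 without those arrays. The 12-week difference exceeded the 2-week one by 0.93 ± 0.27 (adjusted p = 0.960). In the mouse with 2 arrays Ahrr was 5.50 on the Glycam1-high array and 4.59 on the other.

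Tiparp, the ADP-ribosyltransferase that limits AHR signalling (gene ID 99929, chr3:65528447-65555518), was bright on 3 probe sets that moved together, with Pearson's r of 0.89 to 0.96 over 44 arrays. They share a transcript, so they count as 1 measurement. For 1452161_at the 12-week levels were 7.55, 8.12 and 8.86 in air and 7.25, 8.16 and 8.61 in smoke. Smoke minus air was 0.12, -0.07 and -0.46 at 2, 12 and 24 weeks, and none passed. The lowest group was RA, at 7.16, 7.34 and 8.54, against 7.74, 8.39 and 8.91 in 24-week air, and 5 of 6 RA mice were below the lowest air mouse. That difference was -0.77 ± 0.28 (adjusted p = 0.243, limma), and the other probe sets gave -0.53 and -0.60. Without the Glycam1-high arrays the 3 values were -0.65, -0.58 and -0.49, so the direction was kept while none passed.

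**Figure D4:**
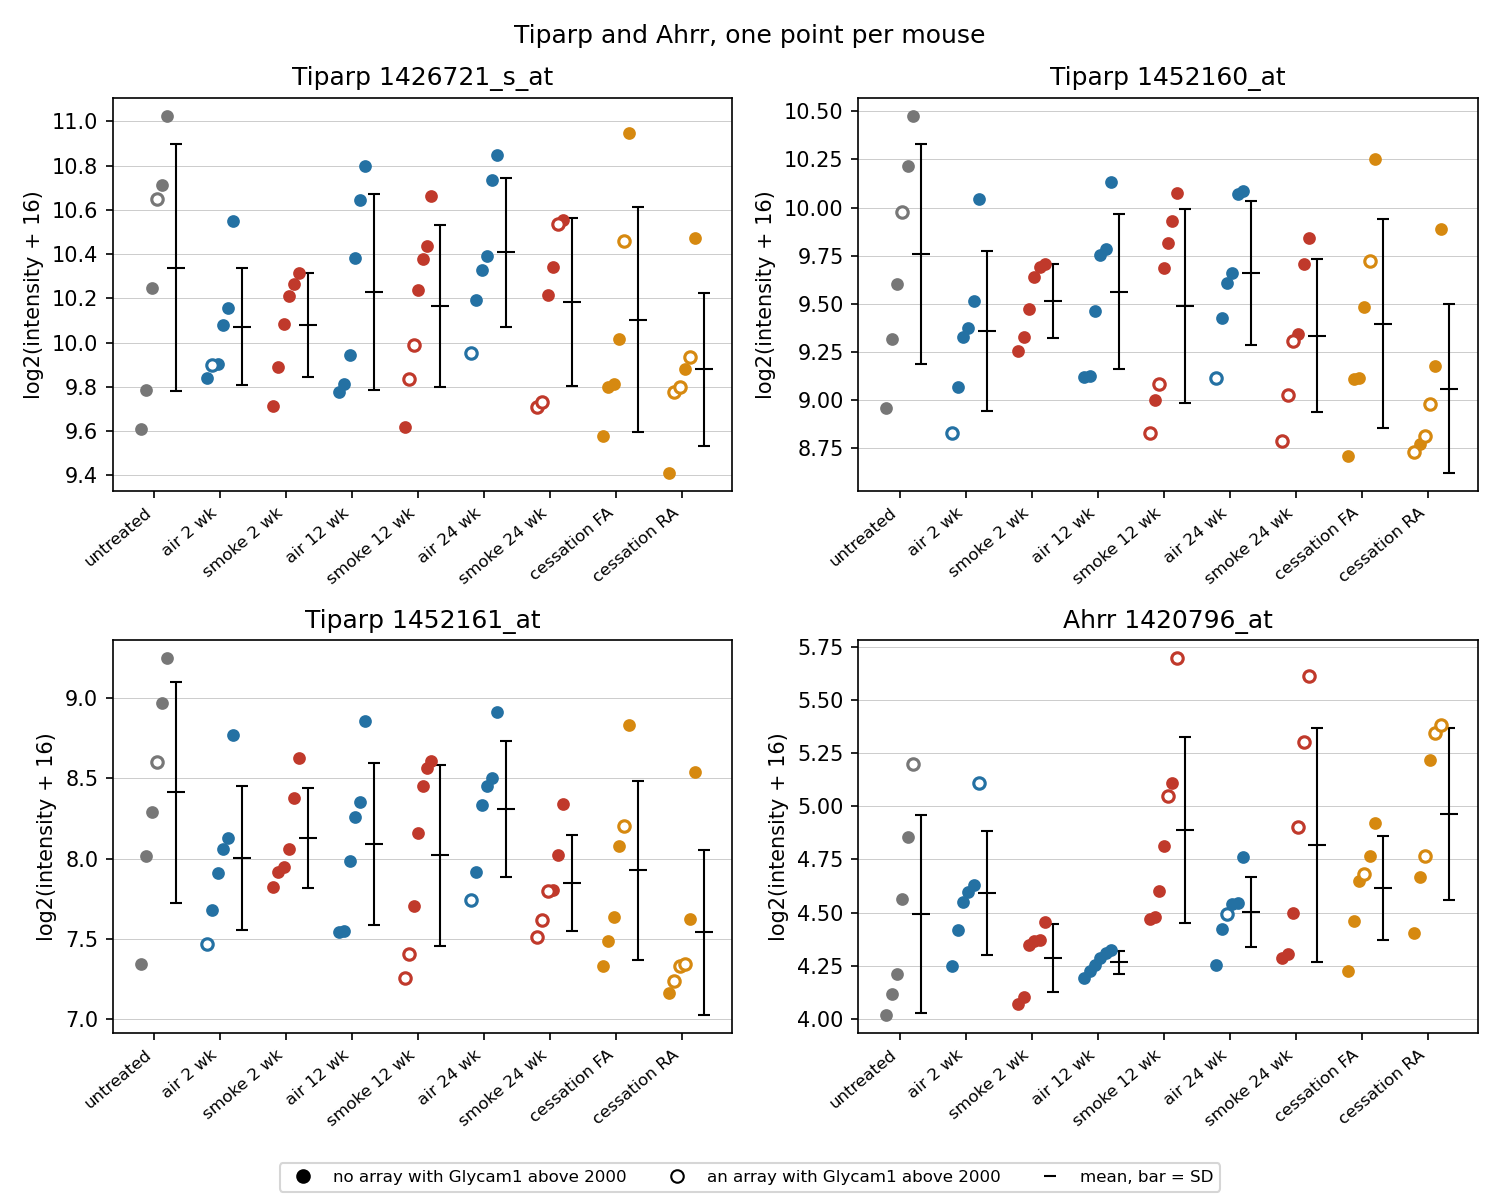
Level of the 3 Tiparp probe sets and of Ahrr in each mouse on the log2(intensity + 16) scale, by group, with the mean and SD; open points are mice with a Glycam1-high array. For Ahrr all 7 mice at 12 weeks of smoke are above all 6 in air, and on each Tiparp panel the RA mice lie low except for 1.

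Aldh3a1, an aldehyde dehydrogenase (gene ID 11670, chr11:61208510-61218418), was dim, at 4.90, 5.18 and 6.02 in 12-week air and 5.27, 5.42 and 6.34 in 12-week smoke. Smoke minus air was above 0 at each time, with a mean of 0.27 ± 0.12 (adjusted p = 0.734, limma; without the Glycam1-high arrays 0.18). FA minus 24-week smoke was -0.54 ± 0.21 (adjusted p = 0.136, limma). Without the Glycam1-high arrays it was -0.35 ± 0.24 (adjusted p = 0.509, limma). The groups overlapped in each of these comparisons.

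Counted over the family, with limma and an adjusted p under 0.05, 1 of 17 probe sets was called at 12 weeks, where 0.00444% of all probe sets were called, and 1 of 17 in the mean of the 3 times, where 0.0133% were. That probe set was Cyp1a1 both times, for which the genes were chosen, so nothing is read from these counts. With Cyp1a1 again among them, 2 of 17 had an unadjusted p under 0.05 at 12 weeks (2.78% of all) and 2 in the mean (6.61% of all). At 2 weeks 0 of 17 were called (0% of all) and 0 of 17 had an unadjusted p under 0.05 (2.94% of all probe sets did). At 24 weeks 0 of 17 were called (0.0844% of all) and 1 had an unadjusted p under 0.05 (17.9% of all). At 12 weeks 10 of the 17 differences were above 0, with a median of 0.01.

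**Figure D5:**
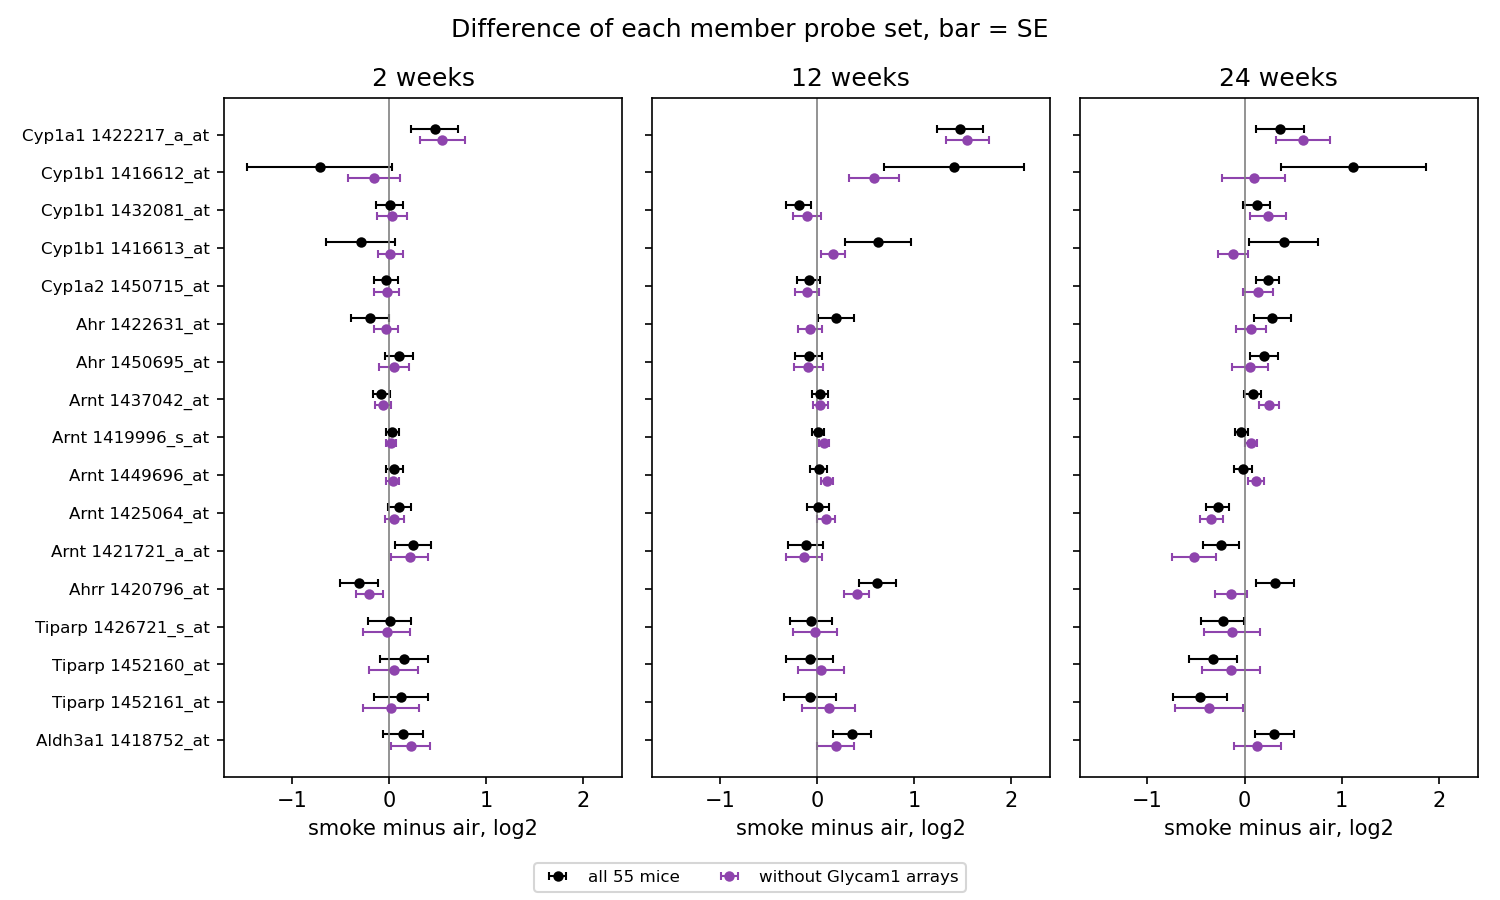
Smoke minus air for each of the 17 probe sets at 2, 12 and 24 weeks, as the log2 difference with its SE, over all 55 mice (black) and without the Glycam1-high arrays (purple). Cyp1a1 stands at 1.47 at 12 weeks, and Cyp1b1 1416612_at and 1416613_at, but not 1432081_at at 2 and 24 weeks, lie nearer to 0 when those arrays are left out.

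For cessation, 0 of 17 members were called in FA against 24-week air (0.00444% of all probe sets), with 0 at an unadjusted p under 0.05 (5.95% of all). In RA against 24-week air 0 of 17 were called (0.635% of all) and 6 had an unadjusted p under 0.05 (10.6% of all). They were Ahr, Ahrr and Cyp1a2 with higher values and the 3 Tiparp probe sets, which count as 1 measurement, with lower ones. Against 24-week smoke 0 of 17 were called in FA (1.17% of all) and in RA (0.848% of all), with 2 and 0 at an unadjusted p under 0.05 (20.2% and 11.1% of all). Against 12-week smoke 1 of 17 was called in FA (0.102% of all) and in RA (0.737% of all), again Cyp1a1, for which the genes were chosen, so that nothing is read from it. Between RA and FA 0 of 17 were called (0.0133% of all), with 0 at an unadjusted p under 0.05 (4.57% of all). Among the control mice 0 of 17 were called in 12-week against 2-week air (0.00222% of all), in 24-week against 2-week air (0.0444% of all) or in 2-week air against untreated mice (0.167% of all), with 1, 0 and 1 at an unadjusted p under 0.05 (5.32%, 8.76% and 5.90% of all). For the change in the smoke effect, 0 of 17 were called from 2 to 12 weeks (0% of all) and from 12 to 24 weeks (0.00222% of all), with 3 and 1 at an unadjusted p under 0.05 (3.19% and 5.05% of all). Both of these last counts include Cyp1a1, for which the genes were chosen, so that nothing is read from them. The comparisons with 24-week air share those air mice, and those with smoke share the smoke mice.

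Without the Glycam1-high arrays 1 of 17 was counted, again Cyp1a1 and again with nothing to be read from it, at 12 weeks (0.00666% of all probe sets) and in the mean of the 3 times (0.0422% of all), and against 12-week smoke in FA (0.528% of all) and RA (1.48% of all). With Cyp1a1 among them, 3 of 17 had an unadjusted p under 0.05 at 12 weeks (6.33% of all) and 2 in the mean (9.22% of all). Without those arrays 0 of 17 were called at 2 weeks (0.00222% of all) and at 24 weeks (0.127% of all), with 1 and 4 at an unadjusted p under 0.05 (4.48% and 16.4% of all). Cyp1a1 was the 1 at 2 weeks and 1 of the 4 at 24 weeks, so that nothing is read from these counts. Against 24-week air 0 of 17 were called in FA (0.0289% of all) and in RA (1.2% of all), with 1 and 3 at an unadjusted p under 0.05 (8.47% and 13.7% of all). The 3 in RA were Ahr (1422631_at), Arnt (1449696_at) and Cyp1a2, so Tiparp and Ahrr were no longer among them. Among the control mice 0 of 17 were called in 24-week against 2-week air (0.453% of all) and in 2-week air against untreated mice (0.513% of all), with 2 and 2 at an unadjusted p under 0.05 (13.5% and 9.37% of all).

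The rest of the pathway did not pass in any comparison of smoke with air, with or without those arrays. This held for 6 chaperones and cofactors of the receptor measured of 10 listed, 14 other reported AHR targets of 20, 14 ARNT partners and hypoxia targets of 14, and 5 genes of P450 support of 6. In these comparisons 0% to 0.0844% of all probe sets were called (0.00222% to 0.127% without those arrays), so nothing is read from this about the lists. At 24 weeks 3 of 6, 2 of 14, 4 of 14 and 1 of 5 genes had an unadjusted p under 0.05 (17.9% of all probe sets did). The median differences of the 4 lists at 12 weeks were -0.01, 0.01, -0.01 and 0.06, beside a median of -0.01 over all probe sets. The 24-week medians were 0.22, -0.11, -0.06 and -0.04, beside -0.02 over all, and without those arrays 0.25, -0.04, -0.03 and -0.20, beside -0.02. Nqo1, a quinone reductase that both AHR and NRF2 induce, differed by -0.12 ± 0.16 at 12 weeks (adjusted p = 0.9997, limma; 0.03 ± 0.08 without the Glycam1-high arrays).

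Nrip1, a nuclear receptor cofactor also reported to bind AHR, had the lowest unadjusted p of these lists in the mean of the 3 times, at 0.15 ± 0.05 (adjusted p = 0.592). Its mean was lower in both cessation arms than in 24-week air. Levels ran from 11.55 to 11.88 in RA and from 11.53 to 11.83 in FA, against 11.85 to 12.32 in that air group. RA minus 24-week air was -0.33 ± 0.08 (adjusted p = 0.0368; without the Glycam1-high arrays -0.38, adjusted p = 0.0367), and in FA the value was -0.38 ± 0.08 (adjusted p = 0.0919). Nrip1 was the 1 gene of the 4 lists that passed in RA against 24-week air with all mice, where 0.635% of all probe sets were called. Ephx1, the epoxide hydrolase that acts on the products of CYP1 enzymes, differed by -0.29 ± 0.10 in RA (adjusted p = 0.183) and passed without the Glycam1-high arrays, at -0.41 ± 0.10 (adjusted p = 0.0185). Without those arrays only 3 RA mice and 5 mice of 24-week air remained, and 1.2% of all probe sets were called. Egln3, a prolyl hydroxylase of the hypoxia pathway, differed by -0.28 ± 0.12 in the mean of the 3 times and did not pass (adjusted p = 0.734).

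Over the 43 mice with no Glycam1-high array, the probe sets whose level was most like that of Cyp1a1, among 19555 ranked, belonged to Anxa4 (Pearson's r = 0.61), Lonrf3 (0.59), Cystm1 (0.59), Gna13 (0.58) and Cnksr1 (0.56). They were picked for following a gene that was itself chosen for its rise under smoke, so no test of smoke is given for them. Their deviations from the group means correlated with those of Cyp1a1 at 0.01 to 0.27, so the likeness lay between groups and hardly within them. Among the members, r with Cyp1a1 was highest for Cyp1b1 (1416612_at, 0.36, and 0.13 for the deviations from group means). For Ahrr it was 0.04 over the same 43 mice and -0.49 for the deviations, the latter the largest in size of any member. All these values share the arrays and their scaling and are a description only.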

How the data were processed

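RNA of 55 mice was measured on 56 Affymetrix arrays. Per the labels' protocols, 50 ng of total RNA was amplified with the NuGEN Ovation system and biotin-labelled. The deposited values are intensity on a linear scale, from -20.0 to 15890, and 0.46% of them are below 0. The authors' probe summary and scaling are not given in the sources used here; array medians ran from 62.5 to 77.5. Here values were floored at -15 (5 of 2522072), 16 was added, log2 was taken and the 2 arrays of 1 mouse were averaged. Amplification and the constant both compress changes of dim probes.

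A linear model with 9 group means was fitted with limma 3.58.1 (R 4.3.3, 46 residual degrees of freedom) over all 45037 probe sets, because dim members were kept, and Benjamini-Hochberg adjusted p-values run over all of them in each of 16 comparisons. An adjusted p under 0.05 was a call. Probe sets were named through the platform annotation (34945 with 1 symbol, 932 with several, 9160 with none). For a gene of the lists, the probe set with the highest mean stood for it. The genes named were all members, the 2 genes of each list with the lowest p in the mean smoke difference, of which some are printed, and the 5 genes most like Cyp1a1; Nqo1 was chosen after its values were seen. Members and lists were chosen with earlier results of these data known. The number of arrays limits the precision. The fit was tested on simulated data. Alternatives are given in the closing section.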

Additional observations from a re-analysis of the deposited data

Results flagged for a closer look

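In 153 sets of 1 probe set in 1 group of 6 or 7 mice, 10 had a highest or lowest mouse farther from its neighbours than Dixon's 95% value allows; chance gives about 1 in 20. In 6 of the 10 the mouse had a Glycam1-high array. For Cyp1b1 (1416612_at) these were untreated replicate 1 at 10.04, 2-week air replicate 3 at 9.37 and FA replicate 4 at 9.37. For Cyp1b1 (1416613_at) they were 2-week air replicate 3 at 6.41 and 24-week air replicate 6 at 6.41. For Arnt (1425064_at) it was untreated replicate 1 at 6.36. The other 4 mice had no such array: Cyp1b1 (1432081_at) was 4.62 in RA replicate 6, Ahr (1450695_at) was 5.54 in FA replicate 1, Tiparp (1452161_at) was 8.54 in RA replicate 6, and Aldh3a1 was 6.02 in 12-week air replicate 5. No cause was tested.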

How the results depend on the processing

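With only the compared groups fitted, 0 members were called in place of 1 (Cyp1a1) at 12 weeks, in the mean of the 3 times and in FA against 12-week smoke. That fit has fewer mice behind its estimate of the spread. Leaving out 1 mouse at a time gave 0 to 1 called members in FA against 12-week smoke, with 0 only without FA replicate 6, and the cause was not tested. Over the alternatives (other constants and scaling, array weights, a filter on dim probe sets, the title number as a covariate, the mouse number as a block, either array of the doubled mouse, and no Glycam1-high arrays) Cyp1a1 smoke minus air ran from 0.32 to 0.55 at 2 weeks, 1.25 to 1.57 at 12 weeks, 0.22 to 0.61 at 24 weeks and 0.64 to 0.90 in their mean. Leaving out single mice gave 1.32 to 1.60 at 12 weeks. Ahrr at 12 weeks ran from 0.22 to 1.67, with adjusted p-values of 0.534 to 1.000. Among all differences except those of Cyp1a1 for smoke minus air, the sign turned in 5.27% of 3056 values under the alternatives and in 5.43% of 4108 with 1 mouse left out. Those of Cyp1a1 against 12-week smoke are among these values and kept their sign. No direction is claimed for a difference that was not called. Sample titles give each mouse a number that recurs in other groups, with nothing saying that it marks a shared animal, litter or day. Of 85 pairs of same-numbered mice in different groups, 28 had deviations from the group means that correlated above 0.1 (median r of 0.03, and 0.01 for other pairs), so the numbers were not taken to pair the mice. With this number as a block, an alternative chosen after seeing the data that leaves 29 residual degrees of freedom, 0 members were called in place of 1 in the mean of the 3 times, where Cyp1a1 differed by 0.67, and FA minus 12-week smoke for Cyp1a1 was -1.75; the count of called members was the same in the other 15 comparisons. Signal over background limits Cyp1a2, Ahrr and Aldh3a1.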
